A study of Caenorhabditis elegans with 2 samples.

Results

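The gene egl-43 of Caenorhabditis elegans was examined as 1 of 19973 protein-coding genes, together with the 10 kb upstream of it. It was taken because it encodes the protein that carries the tag, and its peaks were all those with a summit inside the gene body or that upstream stretch. Chromatin immunoprecipitation and sequencing (ChIP-seq) had been performed on whole worms of strain RW12181, a single line in which CRISPR placed TY1, EGFP and 3xFLAG tags in egl-43 on chromosome II (allele st12181). The chromatin was sonicated and came from L4 larvae at 49 hours, grown from bleached and starved L1 larvae. The labels disagree on the antibody: the sample descriptions name one against GFP, and the antibody field reads egl-43. The 2 samples were biological replicates 1 and 2 of this 1 group, and both carried the tag. No untagged worms, other stage or control library was analysed here, so nothing below separates binding of EGL-43 from background. The animals were not dissected, so a peak can come from any of their cells. Of 65641 peaks in the ranked list for both replicates together, called the series list below, 22 had a summit in the egl-43 stretch. Of the 3146 in its thresholded list, 2 did.

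The protein EGL-43 regulates transcription through zinc fingers and is the worm relative of mammalian EVI1 (MECOM), which binds DNA with separate groups of such fingers. In worms it is known for the anchor cell, the uterine cell that breaches the basement membranes to contact the vulva, and for the migration and function of neurons such as the HSN motor neurons that drive egg laying. In the anchor cell it has been described as part of a small circuit with the transcription factor genes fos-1, nhr-67 and hlh-2. A transcription factor that binds near its own gene can raise or lower its own transcription, which is why peaks at egl-43 itself are of interest.

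The gene (WBGene00001207) lies on the plus strand of the WBcel235 assembly at chrII:9955185-9963020, by Ensembl release 115, and is 7836 bp long. It has 3 protein-coding transcripts, each with its own annotated transcription start site (TSS), and 1 noncoding transcript. The TSSs are annotated 5' ends of transcripts, and whether transcription starts at them was not tested. The first lies 1 bp before the start codon of the long transcript, and the middle one just before exon 2 of that transcript, which begins at 9957013. The first TSS, at 9955185, starts the long transcript R53.3a.1, whose 10 exons encode 543 residues. The middle TSS, at 9957011, and the last TSS, at 9960231, start transcripts with different 5' ends that share 1 start codon at 9960333 and encode the same shorter protein of 322 residues. In the translated sequences, a simple pattern of the C2H2 zinc finger matched at 4 places in the long protein and at 2 in the short one. The 2 extra matches in the long protein begin at residues 161 and 189, in the part that the short protein lacks. The upstream neighbour flad-1 ends 8063 bp before the first TSS. The downstream neighbour dtmk-1, on the other strand, overlaps the last 54 bp of egl-43.

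The summits of both thresholded peaks lay outside the coding sequence, and the DNA of the peaks is shown because these are the stretches that passed the reproducibility threshold at the gene. The third strongest peak, which fell just short of it, is shown beside them. All are given 5' to 3' on the plus strand from the RefSeq WBcel235 genome. The upstream piece is chrII:9952726-9953025, 300 bases around the summit. The internal piece is chrII:9960006-9960230, 225 bases from the start of the peak to the base before the last TSS. The third piece is chrII:9953735-9954034, 300 bases around its summit. Capitals mark every match to any of the 7 motifs described below.
Upstream peak: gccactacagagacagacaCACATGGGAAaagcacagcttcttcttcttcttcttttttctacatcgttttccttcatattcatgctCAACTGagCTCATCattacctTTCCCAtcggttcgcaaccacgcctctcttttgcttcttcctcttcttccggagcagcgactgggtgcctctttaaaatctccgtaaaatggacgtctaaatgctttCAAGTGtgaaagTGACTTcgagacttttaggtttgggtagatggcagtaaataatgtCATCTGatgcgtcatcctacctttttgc
Internal peak: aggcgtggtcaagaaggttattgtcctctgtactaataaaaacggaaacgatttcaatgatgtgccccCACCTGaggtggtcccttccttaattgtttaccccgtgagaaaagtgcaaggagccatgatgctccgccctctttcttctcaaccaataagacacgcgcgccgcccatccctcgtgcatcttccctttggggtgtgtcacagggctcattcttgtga
The third peak: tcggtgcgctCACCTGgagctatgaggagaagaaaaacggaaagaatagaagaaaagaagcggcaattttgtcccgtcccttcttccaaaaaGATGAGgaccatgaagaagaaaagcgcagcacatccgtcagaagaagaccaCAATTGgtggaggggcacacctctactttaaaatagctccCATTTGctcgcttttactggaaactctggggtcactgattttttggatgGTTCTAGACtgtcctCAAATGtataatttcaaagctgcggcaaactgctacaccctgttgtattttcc
The G and C content of the 301 bp around each summit was 43.5% at the upstream peak, 49.2% at the internal peak and 45.2% at the third. The median over all thresholded peaks of the series was 47.5%, with quartiles of 43.2% and 51.8%, so none of the 3 stood far from the rest.

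The internal peak was at chrII:9960006-9960335, and its summit at 9960171 lay 60 bp upstream of the last TSS. That position is in intron 5 of the long transcript, a 435 bp intron at chrII:9959865-9960299, and 162 bp upstream of the start codon of the short protein. Its signal, a value per peak that the authors deposited and that is comparable only within a list, was 147.2 in the series list. The replicate 1 list gave 82.7 for this peak and the replicate 2 list 60.9. It was the strongest peak of the gene in the series list and in replicate 1, and the third strongest in replicate 2.

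The irreproducible discovery rate (IDR) estimates how likely a peak is not to recur between 2 rankings, so a low value marks a reproducible peak. The list of a single replicate belongs to 1 sample, so its IDR is not read here as recurrence between the 2 biological replicates. The thresholded lists hold peaks with a global IDR up to 0.0100. The internal peak had a global IDR of 0.00163 in the series list and 0.00255 in the conservative series list. Within replicate 1 it was 0.00389, and within replicate 2 it was 0.0415. The peak therefore passed the threshold in replicate 1 and missed it in replicate 2. The deposited IDR score, a rescaled form of the same quantity, was 1000 in replicate 1 and 573 in replicate 2. A score of 1000 is the cap, reached by 66.9% of series thresholded peaks, so that score does not order the strongest sites.

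The upstream peak was at chrII:9952710-9953039, with its summit at 9952875. It lay in the intergenic stretch between flad-1 and egl-43, 2310 bp upstream of the first TSS and 7296 bp from the internal summit. Its signal was 146.8 in the series list, 70.3 in replicate 1 and 68.9 in replicate 2. By signal it was the strongest peak of the gene in replicate 2 and the second strongest in replicate 1 and in the series list. Its global IDR was 0.00135 in the series list and 0.00196 in the conservative list, the lowest at the locus in both. Within single replicates it was 0.0145 and 0.0220 in replicates 1 and 2. It was therefore in both series thresholded lists and in neither replicate's own.

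The third peak was at chrII:9953719-9954048, 1301 bp upstream of the first TSS. Its signal was 100.6 in the series list, 56.9 in replicate 1 and 49.1 in replicate 2. Its global IDR of 0.0127 in the series list and 0.0143 in the conservative list stood just outside the threshold. In the series thresholded list, 134 of 3146 peaks (4.26%) had a signal below that of this peak, since the threshold is on the IDR and not on the signal. The next peak down, in intron 4, had a signal of 79.1 in the series list with a global IDR of 0.0402.

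**Figure D1:**
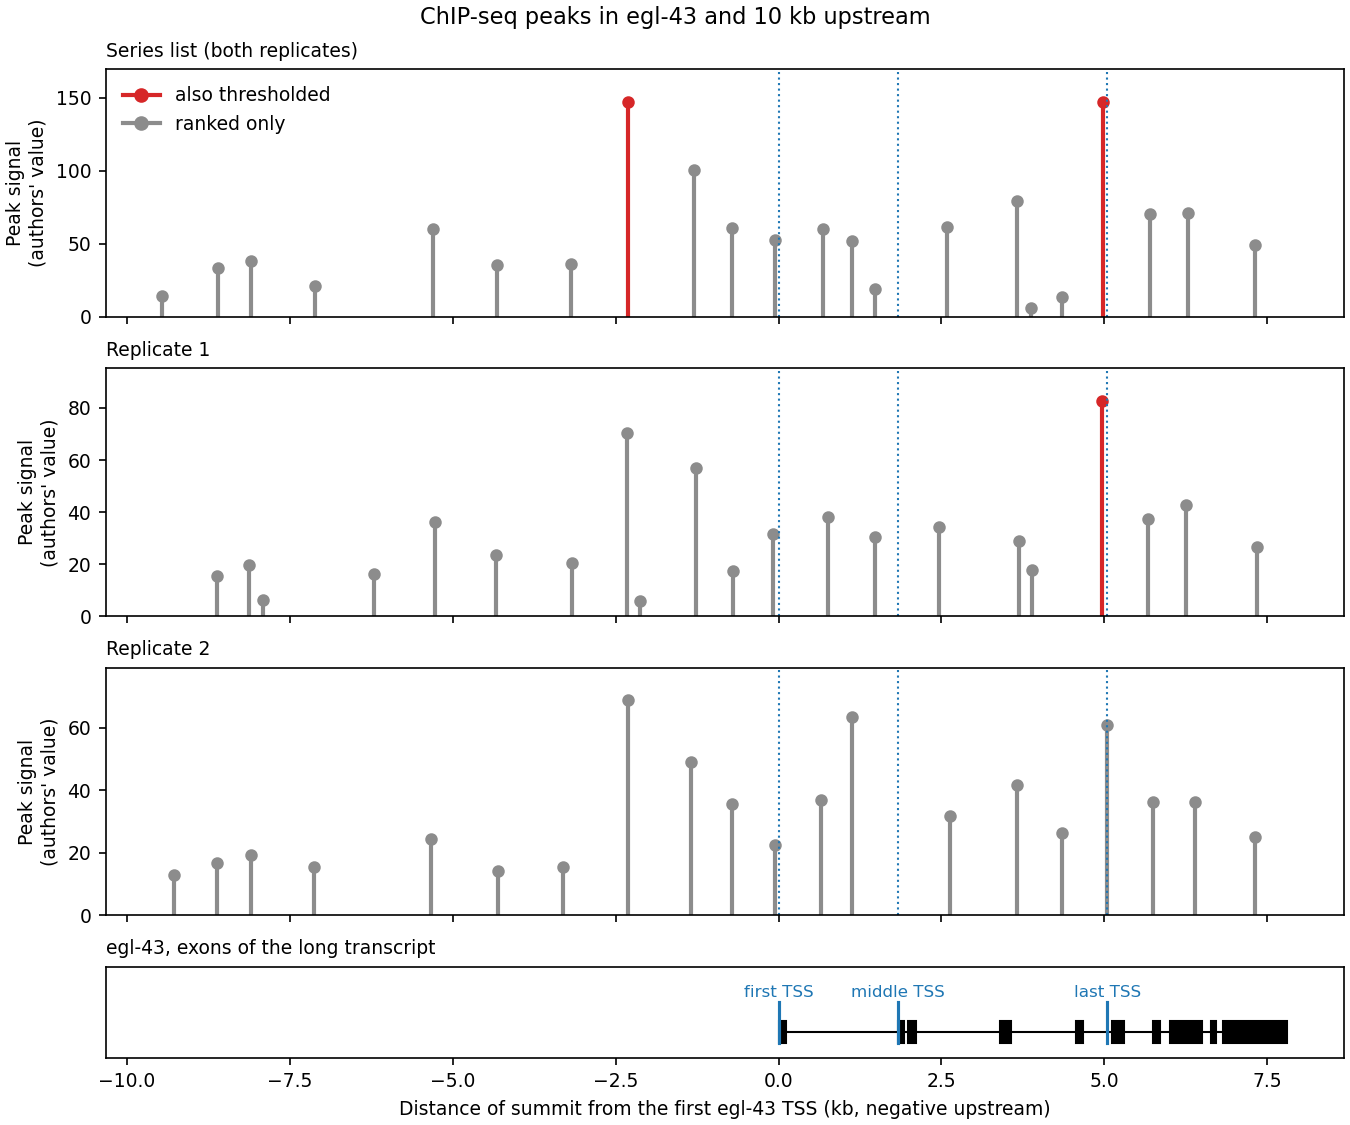
Signal of every ranked peak (vertical axis, the authors' value) against the distance of its summit from the first egl-43 TSS in kb (horizontal axis), in the series list, replicate 1 and replicate 2, with the exons of the long transcript below and the 3 TSSs as dotted lines. Red peaks are also in the thresholded list of that panel, 2 in the series list, 1 in replicate 1 and none in replicate 2, and the 2 red series peaks at 147.2 and 146.8 stand above the third at 100.6.

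The remaining 19 ranked peaks of the series list were spread over the whole stretch. Counting all 22, there were 3 in flad-1, 8 in the intergenic stretch, 9 in introns of egl-43 and 2 in its exons, by the long transcript. Their signals ran from 6.45 to 147.2, with a median of 52.4, against a median of 41.5 over the whole ranked list, and 13 of the 22 were above that median. The conservative ranked list held 18 peaks in the stretch, and the ranked lists of replicates 1 and 2 held 21 and 20. The last summit lay 340 bp past the stop codon, with a signal of 49.0 and a global IDR of 0.367. The labels write the tags after the gene name but do not give the site of the insertion.

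Read against the lists as a whole, 2 of 22 peaks at the locus were in the series thresholded list, where 4.79% of all ranked peaks were. In the conservative lists it was 2 of 18, where 4.64% of all ranked peaks were thresholded. It was 1 of 21 in replicate 1, where 2.19% were, and 0 of 20 in replicate 2, where 2.51% were. With 0 to 2 peaks at the locus in a list, these shares are a description only.

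The 3 promoters of the gene differed in what they held. A promoter was taken as 1000 bp upstream to 500 bp downstream of the annotated TSS. At the last TSS, the promoter nearest to the start codon of the short protein, the strongest peak was the internal one described above. At the first TSS, that of the long protein, the strongest ranked peak had a signal of 60.9 in the series list, 715 bp upstream, with a global IDR of 0.432. Its replicates differed in which peak was strongest there. Replicate 1 had 31.8 at 77 bp upstream and replicate 2 had 35.7 at 712 bp upstream. The peak nearest to the first TSS in the series list, 53 bp upstream, had a signal of 52.9. No peak at the first or the middle promoter was in any thresholded list.

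At the middle TSS the replicates held different peaks. Replicate 2 had a peak at chrII:9956156-9956479, 693 bp upstream of the middle TSS and inside intron 1, with a signal of 63.4 and a global IDR of 0.0189. It was the second strongest egl-43 peak of that replicate, above the internal peak at 60.9. The replicate 1 ranked list had no peak overlapping it. The nearest replicate 1 summit was 342 bp away, with a signal of 30.6 and a global IDR of 0.358. Of the 2161 replicate 2 ranked peaks with at least its score of 715, only 57 (2.64%) had no overlapping peak in the replicate 1 ranked list. In the series list the site had a signal of 51.8 and a global IDR of 0.204, and the conservative ranked list held no summit in the middle promoter.

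**Figure D2:**
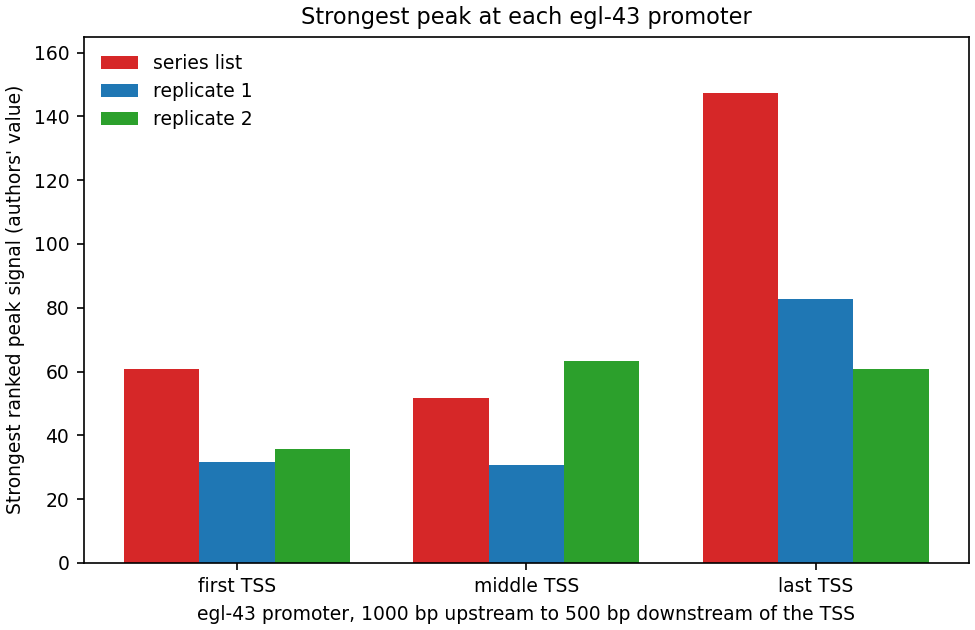
Strongest ranked peak signal (vertical axis, the authors' value) within 1000 bp upstream to 500 bp downstream of each egl-43 TSS (horizontal axis), with 1 bar per list and no error bar because each bar is a single value. The last TSS has the highest series and replicate 1 bars, at 147.2 and 82.7, while in replicate 2 the middle TSS at 63.4 slightly exceeds the last at 60.9. Levels are to be compared within a colour.

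Set among the promoters of other genes, the last TSS of egl-43 ranked high. Its strongest signal exceeded that of 92.8% of the 14988 protein-coding TSSs with a ranked summit in the promoter. The first TSS exceeded 46.9% of them and the middle TSS 35.4%. Of all 29314 protein-coding TSSs, 7.15% had a thresholded summit in the promoter, and 1 of the 3 egl-43 TSSs did.

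The agreement between replicates was examined over all 22 sites. Overlapping peaks were found in both replicate ranked lists at 17 of them, where 2 neighbouring sites in intron 4 shared 1 replicate 2 peak. Since the signals of separate lists share no known scale, the log2 ratio of replicate 1 to replicate 2 signal is read only against the same ratio at other peaks, and its sign is not a difference in level. It ran from -1.23 to 0.72 over these 17, with a median of 0.08. The lowest ratio was at the weaker of those neighbouring sites, with a series signal of 6.45, and the next lowest was -1.03. Most of the 17 were not thresholded, and the spread over all ranked peaks was not computed, so their range has no like set here. Over 3082 series thresholded peaks with both values, the median was -0.09, with quartiles of -0.40 and 0.19. The internal peak had a ratio of 0.44, above that of 88.7% of those peaks. The upstream peak had 0.03, above 62.4%. Of this pair, the upstream peak sat nearer the middle of the list, and the internal peak was inside the range of its central 90%, which ran from -0.93 to 0.70.

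**Figure D3:**
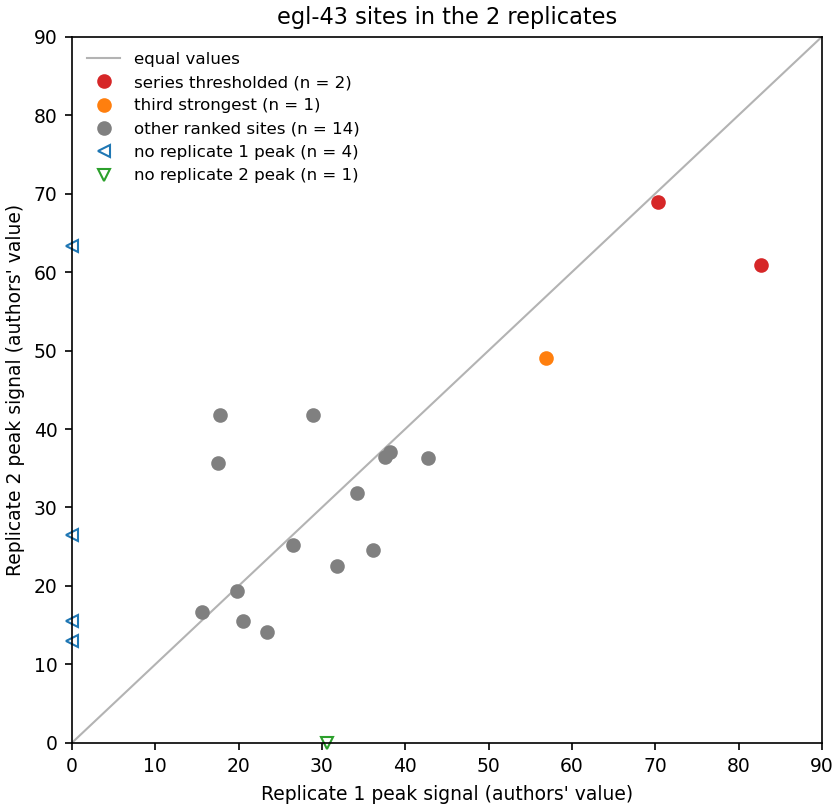
Signal in replicate 2 (vertical axis) against signal in replicate 1 (horizontal axis), both the authors' values, for each egl-43 site, with a line of equal values, which is not a line of equal level because the lists share no known scale. The 2 series thresholded sites and the third site lie at the upper right, and open triangles on the axes are sites with no overlapping peak in 1 replicate, the highest of them at 63.4 in replicate 2.

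Summit positions were also compared. For the upstream peak the summits of the replicates were 6 bp apart, and for the internal peak 75 bp apart. Replicate 1 placed the internal summit 88 bp upstream of the last TSS and replicate 2 placed it 13 bp upstream, so both stayed on the upstream side. Over the 17 egl-43 sites with a peak in both replicates the median gap was 55 bp and the largest 225 bp. The largest was at the weaker of the neighbouring intron 4 sites that shared a replicate 2 peak, and the next was 171 bp. Over the 3082 series thresholded peaks with a peak in both, the median gap was 24 bp, and 90% of gaps were at most 85 bp. Most of the 17 sites were not thresholded, so these sets are unlike. All 22 peaks at the locus in the series list were 330 bp wide with the summit in the centre. That width was shared by 99.2% of the series ranked list and by 83.2% of its thresholded list, where most summits were also central.

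In the thresholded list as a whole the egl-43 peaks were of middle strength. The internal peak ranked 1374 of 3146 by signal, in the top 43.7%. In the ranked lists it was in the top 2.16% for the series, the top 1.75% for replicate 1 and the top 5.43% for replicate 2. The upstream peak was in the top 2.18%, 2.64% and 3.58%. The third peak was in the top 6.82%, 5.37% and 11.3%. All 3 were thus among the stronger ranked peaks in every list, and well below the strongest thresholded ones.

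**Figure D4:**
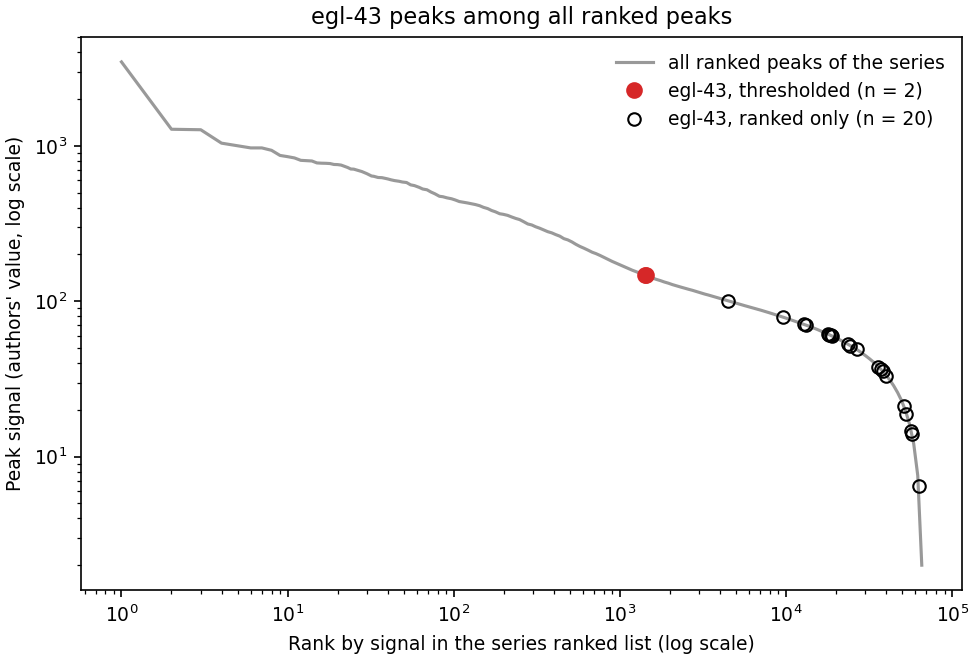
Signal (vertical axis, log scale, the authors' value) against rank by signal (horizontal axis, log scale) for the 65641 ranked peaks of the series, with the 22 egl-43 peaks marked. The 2 thresholded egl-43 peaks overlap at ranks 1421 and 1428, the third is the next marker to the right at 100.6, and the others fall along the body of the curve.

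Having 2 thresholded summits was not rare for a gene of this size. Among all protein-coding genes, 27.0% had at least 1 in the gene body and 10 kb upstream, and 9.69% had at least 2. Among the 1117 other genes within 20% of the length of egl-43, 15.5% (173 genes) had at least 2, and 61.9% had none. Ranked summits were more numerous than in most of these genes, and the egl-43 stretch lies in a longer run of them, described below. The 22 at egl-43 compare with a median of 14 and quartiles of 4 and 21, and 75.4% of the genes had fewer. The strongest ranked signal in the egl-43 stretch exceeded that of 77.9% of them, whose median was 107. That share is of all 1117 genes, 161 of which (14.4%) had no ranked summit in the window and so no signal to compare.

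**Figure D5:**
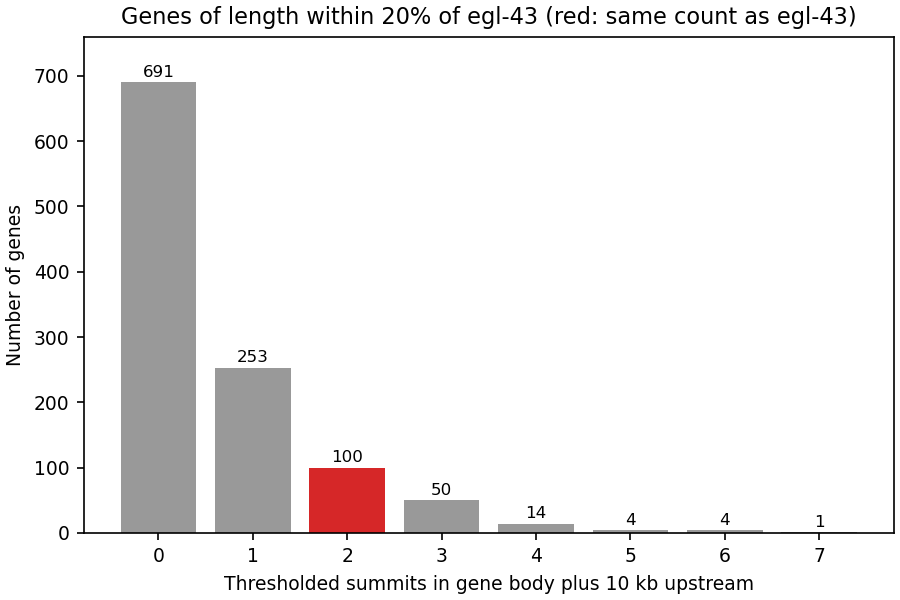
Number of genes (vertical axis) by the count of series thresholded summits in gene body plus 10 kb upstream (horizontal axis), for the 1117 genes within 20% of the length of egl-43, which is not itself counted. Red marks the count that egl-43 has, shared by 100 genes, while 73 genes have more.

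On chromosome II the ranked summits fall into runs separated by gaps, and the run that holds egl-43, broken wherever a gap exceeds 10 kb, spanned 54.6 kb in the series list with 75 summits. The run held 1.37 ranked summits per kb, and the egl-43 stretch within it 1.23. Chromosome II as a whole held 0.838, but that value includes the gaps that a run leaves out by definition. It is therefore not a like set, and whether the density is particular to egl-43 was not tested. Of the 75, 3 were thresholded, beside 4.79% of all ranked peaks of the series. They were the egl-43 pair and 1 at chrII:9934551-9934880, with a signal of 149.5. On the other side the next thresholded summit was 53199 bp past the gene end, at lec-2, a galectin gene. Neither egl-43 peak was near a small noncoding RNA gene of the tRNA, snoRNA, snRNA or rRNA kinds, the nearest being a snoRNA gene over 100 kb away, at 105.66 kb from the internal summit.

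The 2 nearest protein-coding genes on each side were counted in the same way. For flad-1, which encodes an FAD synthase, and ufd-3, a gene of ubiquitin-dependent protein turnover, the same window held 1 thresholded summit, which is the shared one at 149.5 and lies 9421 and 6037 bp from their TSSs. For dtmk-1, a thymidylate kinase gene, and R53.4 it held none, and the strongest ranked signals were 128.1 and 97.7. That shared summit, the nearest outside the egl-43 stretch, lies 20469 bp upstream of the egl-43 gene.

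The genes described to act with egl-43 in the anchor cell were counted in the same window. Of 13, 5 had at least 1 thresholded summit, 38.5%, beside 27.0% of all protein-coding genes, and the 3 longest genes of the list are among these 5. For fos-1, a bZIP factor gene, there were 3, up to 231.6. For lag-1, the DNA-binding factor of Notch signalling, there were 2, up to 121.1. For zmp-1, a matrix metalloprotease gene, there were 3, up to 190.5. For him-4, which encodes hemicentin, there were 3, up to 868. For mig-10, an adaptor of the actin cytoskeleton, there was 1, of 117.6. The nearest of these summits lay 3081 bp from a TSS of fos-1 and 1803 bp from one of lag-1. For zmp-1, him-4 and mig-10 the distances were 7719, 9064 and 5232 bp. No thresholded summit of these 5 genes was therefore in a promoter as taken above. None was found for nhr-67, hlh-2, lin-12, lag-2, lin-3, cki-1, hda-1 or cdh-3 in the series list. For nhr-67, lin-3 and cdh-3 the window held no ranked summit either, as for 27.6% of all protein-coding genes, while for hlh-2, a bHLH factor gene, the replicate 2 thresholded list held 1. In the thresholded lists of replicates 1 and 2, fos-1 had 1 and 3 summits and lag-1 had 0 and 2. The counts were 2 and 3 for zmp-1, 1 and 2 for him-4, and 0 in both for mig-10. The strongest ranked signal in the series list was above that of egl-43 in 3 of the 13. Of all protein-coding genes, 57.6% had a strongest ranked signal below that of egl-43, and the 27.6% without a ranked summit had none to compare. The worm genes blmp-1 and set-17, which encode PR domain proteins, had no thresholded summit, with strongest ranked signals of 104.5 at blmp-1 and 52.7 at set-17.

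The genes whose strongest signals were closest to those of egl-43 were sought among the 100 of like length that also had 2 thresholded summits. Likeness was the Euclidean distance over the log2 of the strongest signal in the window in the 4 ranked lists, of which the series, conservative and replicate lists share reads. The nearest 5 were lec-2 (0.057), ilkp-1 (0.147), skih-2 (0.160), pod-1 (0.166) and agl-1 (0.200).

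The sequences printed above were searched on both strands for 7 motifs within 50 bp of the summit, a window of 101 bp. The motifs were AGATAA and GATGAG, cores of the sites of the mammalian EVI1 zinc finger groups, CANNTG, the E-box of bHLH factors such as HLH-2, and TGANTCA, the AP-1 site of bZIP factors such as FOS-1. The others were TGGGAA, a core of the site of LAG-1, AAGTCA, the site of tailless-type receptors such as NHR-67, and GTTCNANNC, the B box of tRNA genes. In that window the upstream peak held 1 of them, a TGGGAA match on the minus strand centred 38 bp before the summit. The internal peak held none. The third peak held 2 E-boxes, 1 of them (CAATTG) centred 3 bp from the summit. TGGGAA occurred in 5.21% of all series thresholded peaks and in 6.16% of ranked ones, and CANNTG in 34.9% and 36.7%.

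The remaining motifs had no match in that window at any of the 3 peaks. They were found in 1.84% (AGATAA), 6.45% (GATGAG), 1.62% (TGANTCA), 2.38% (AAGTCA) and 11.6% (GTTCNANNC) of the thresholded peaks. In the same order, the shares of ranked peaks were 3.46%, 6.33%, 2.35%, 4.08% and 4.70%. Over 301 bp the upstream peak held 1 GATGAG match, 4 E-boxes, 2 TGGGAA matches and 1 AAGTCA match. There the first TGGGAA follows an E-box, CACATG, with which it shares 2 bases. In the same window the internal peak held 1 E-box, CACCTG, centred 94 bp before its summit, and 1 TGGGAA match outside the piece printed above. The third peak held 1 GATGAG match, 4 E-boxes and 1 GTTCNANNC match there. The shares of thresholded peaks over 301 bp were 17.4% for GATGAG, 68.9% for CANNTG, 16.3% for TGGGAA, 9.31% for AAGTCA and 22.3% for GTTCNANNC. Of ranked peaks they were 17.4%, 71.8%, 17.7%, 12.4% and 12.5%, in the same order. A match to such short letters is a description of the sequence and does not show which factor bound.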

How the data were processed

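ChIP-seq peak lists of 2 biological replicates were used. Per the notes the authors deposited with the files, the lists were made on the ce11 assembly from alignments of the samples and a control. Names of the peak caller and aligner were not given in the sources used here. For each peak the authors deposited a signal value, an IDR score, other values such as the summit offset in bp and, in ranked lists, the −log10 of the global IDR. Read depth is unknown, so single values carry no interval. The Ensembl release 115 annotation and RefSeq sequence of WBcel235 were used, and no peak passed a chromosome end. The ranked series list of each thresholded list was identified by holding all of its peaks. Replicate peaks were paired by an overlap of at least 1 bp, keeping the largest. No test was run, since there is 1 group, and shares over genes or peaks are descriptions. Named genes were egl-43, its 2 nearest protein-coding genes on each side, 13 anchor cell genes, 2 PR domain genes and the 5 most similar genes. The gene, the lists and the motifs were chosen with earlier results of these data known. Window counts and motif search were checked on simulated data. Python 3.11.15, pandas 2.3.3, numpy 2.4.6, Biopython 1.88 and matplotlib 3.10.9 were used.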

Additional observations from a re-analysis of the deposited data

How the results depend on the processing

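The count of 2 thresholded summits was the same in the conservative list, with no further exclusion of peaks, above the median signal, with 5 kb upstream and with any overlap. It was 1 with 2 kb upstream, which leaves out the upstream peak, and 0 at a global IDR of 0.001 or less. With 1 replicate left out it was 0 to 1, being 0 without replicate 1 and 1 without replicate 2, so the count rests on the combined list. The share of length-matched genes with at least as many summits was 15.3% to 16.9% with other length limits or chromosome II genes, and 15.1% in the conservative list. It was 23.9% without replicate 2, where egl-43 itself had 1. It was 18.1% among genes with a ranked summit in the window, an alternative chosen after seeing the data. It could not be given where egl-43 had 0. The signal rank of the strongest peak was 1375 in the conservative list and 1, tied, by IDR score. In the longer ranked list of 1 replicate it was 1221 for replicate 1, where it is the internal peak, and 2306 for replicate 2, where it is the upstream peak. The internal peak ranked 3501 in replicate 2. With 1 replicate left out the upstream summit was at -2321 to -2315 bp, beside -2310 bp in the series list. The internal summit was at -88 bp without replicate 2 and -13 bp without replicate 1, beside -60 bp. Shifts were judged against the standard deviation of the 2 replicate summits, 4.24 bp for the upstream and 53.0 bp for the internal peak. By that rule only the upstream summit counted as moved, though its shift in bp was the smaller. Thresholded lists held 1 counterpart in replicate 1 and 0 in replicate 2. The number of motifs matched over 301 bp was 4 at the upstream peak and 2 at the internal peak. No paired analysis was possible because both samples belong to 1 group. Unknown read depth limits the precision of every signal value.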
